A study of Ovis aries with 16 samples.

Results

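The genes described here drive or brake the passage of cells from G1 into S phase: the D-type cyclins CCND1, CCND2 and CCND3, the kinases CDK2 and CDK4, the CDK inhibitors CDKN1A and CDKN1C, and the retinoblastoma gene RB1. They were taken by gene symbol, with every probe set that the platform annotation gives that 1 symbol. Of 10 genes sought, 8 were found, with 10 probe sets out of 24016 tested; CDK6 and CDKN1B had no such probe set and were not analysed here. CDKN1C had 3 probe sets and the other 7 genes had 1 each. The group was put together with earlier results of these data known: CCND1 had been seen to be lower in shunt lung while mitotic genes were higher. The genes were thus selected on their names and on the shunt minus control difference of CCND1 and the mitotic genes, and all differences between shunt and control are given as a description, with no p for a single gene; how many passed a threshold is only counted.

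Peripheral lung RNA of 16 lambs killed at 3 days of age was measured on 16 arrays, 1 per lamb as far as the labels tell. In the 8 shunt lambs, a Gore-tex graft sewn before birth joined the ascending aorta to the main pulmonary artery and so sent systemic blood into the lung, a model of CHD (congenital heart disease) in which pulmonary blood flow is increased. The 8 control lambs carry the label sham for treatment. The comparison asked which genes of the lung differ before the pulmonary vessels remodel. The labels give no sex, litter or weight.

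Cyclin D joins CDK4 or CDK6 in cells that receive growth signals, and the complex begins to phosphorylate the retinoblastoma protein. Cyclin E with CDK2 completes that step, E2F factors are released, and the genes of DNA replication are switched on. CDKN1A (p21), CDKN1B (p27) and CDKN1C (p57) bind these kinases and restrain them, and p21 is a classic target of p53. In the lung around birth, epithelium, endothelium, smooth muscle and fibroblasts all still divide, and RNA of the whole tissue mixes them. A lower level can thus mean fewer cells of a type or less RNA per cell, and these cannot be told apart.

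Values are log2 expression after RMA, a procedure that subtracts background, brings the arrays to a common distribution and joins the probes of a probe set into 1 value. The probes were designed on cattle sequence, so a mismatch to the sheep transcript can lower a signal, and levels were compared between lambs only, not between genes. The lung markers SFTPB, SFTPC, AGER and PECAM1 lay at percentiles 96.6 to 99.7 of probe set means. Correlations between pairs of arrays ran from 0.980 to 0.995, and control replicate 2 had the lowest mean correlation with the others, 0.983. Array medians ran from 7.143 to 7.191 in control and from 7.116 to 7.145 in shunt. The labels name no batch, so a part of a batch in the results was not tested. Results under other normalizations are given at the end.

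Among the D-type cyclins, 2 of 3 lay lower in shunt lung and the third did not differ visibly. CCND1, the cyclin most directly induced by mitogens and Wnt signals, ran from 7.27 to 7.94 in the 8 control lambs, with a median of 7.49. In the 8 shunt lambs CCND1 ran from 6.88 to 7.54, with a median of 7.15. Thus 3 of 8 controls lay above every shunt lamb and 5 of 8 shunt lambs lay below every control, while the rest of both groups overlapped. CCND1 averaged 7.51 ± 0.23 (SD, n = 8) in control lambs and 7.18 ± 0.25 in shunt lambs. The difference was -0.33 ± 0.11 (SE), or 1.26-fold higher in control. Shunt replicate 5, at 7.54, was the only shunt lamb above the control mean of CCND1, and control replicate 8, at 7.94, was the highest of all. Without control replicate 8 the CCND1 difference was -0.27, and without shunt replicate 5 it was -0.38.

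CCND2, the D-type cyclin prominent in lymphoid and some mesenchymal cells, ran from 10.48 to 10.88 in control (median 10.69) and from 10.20 to 10.73 in shunt (median 10.52). For CCND2, 3 of 8 shunt lambs lay below every control and 3 of 8 controls above every shunt lamb. Its means were 10.67 ± 0.17 (SD) and 10.49 ± 0.20, a difference of -0.18 ± 0.09 (SE). CCND3, the most widely expressed cyclin of the 3, was at 9.63 ± 0.07 (SD) in control and 9.63 ± 0.11 in shunt, with a difference of 0.0034 ± 0.053 (SE). CCND1 thus stood lower by more than the SD of either group. The CCND2 difference was close to its control SD of 0.17 and smaller than its shunt SD of 0.20. Under other settings the CCND2 difference ran from -0.22 (quantile normalization again) to -0.12 (array weights). Of the shunt lambs lowest for CCND2, replicates 2 and 7 at 10.20 each, the first read 7.43 for CCND1, above the control minimum, and the second read 7.07, below it.

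**Figure D1:**
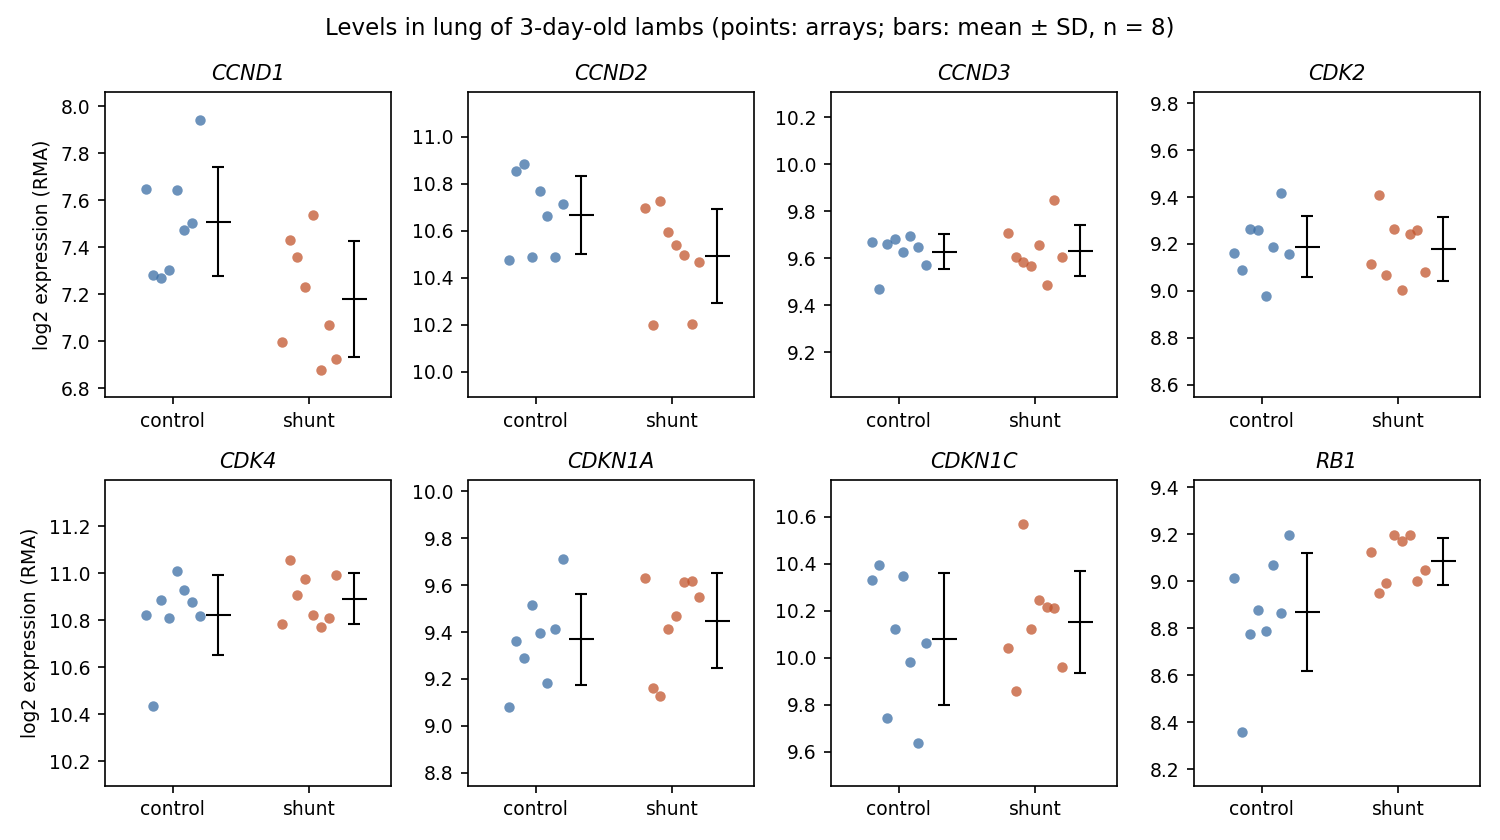
Log2 expression (RMA) of the 8 genes in each lamb, with control and shunt arrays as points and the mean ± SD (n = 8) as bars; each panel spans the same number of log2 units, at its own level. CCND1 and CCND2 sit lower in shunt with overlap, RB1 sits higher and closer together, and control replicate 2 is the low point of CDK4 (10.43) and RB1 (8.36).

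The kinases CDK4 and CDK2 differed little between the groups. CDK4, the partner of the D-type cyclins, ran from 10.43 to 11.01 in control (median 10.85) and from 10.77 to 11.06 in shunt (median 10.87). The groups overlapped, with control replicate 2 below every shunt lamb and shunt replicate 2 just above every control. The difference was 0.07 ± 0.07 (SE), and 0.01 without that control. CDK2, the partner of cyclins E and A, ran from 8.98 to 9.42 in control and from 9.00 to 9.41 in shunt. Its difference was -0.01 ± 0.07 (SE), with 4 of 8 shunt lambs on either side of the control mean.

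The CDK inhibitors also differed little, each probe set slightly higher in shunt lung and within the spread of the lambs. CDKN1A ran from 9.08 to 9.71 in control (median 9.38) and from 9.13 to 9.63 in shunt (median 9.51), a difference of 0.08 ± 0.09 (SE), with 6 of 8 shunt lambs above the control mean. In the shunt group 6 lambs lay between 9.41 and 9.63, and replicates 2 and 3 read 9.16 and 9.13. CDKN1C, an imprinted inhibitor that is strongly expressed in developing tissue, was read by 3 probe sets. The brightest was at 10.08 ± 0.28 (SD) in control lambs and 10.15 ± 0.22 in shunt lambs, and differed by 0.08 ± 0.11 (SE). The others differed by 0.04 ± 0.09 and 0.14 ± 0.08, and in the last of these 7 of 8 shunt lambs lay above the control mean.

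The 3 CDKN1C probe sets all lay higher in shunt, the second of them only with shunt replicate 3 included (-0.0035 without it). Within a group, their correlations with each other ran from -0.28 to 0.57, 5 of 6 of them positive, and none had an exact permutation p under 0.05 (smallest adjusted p = 0.476). The CDKN1C values below come from the brightest probe set, and they hold for that probe set alone.

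RB1, the pocket protein that holds E2F factors in check until the kinases phosphorylate it, was the member that stood highest in shunt relative to control. It ran from 8.36 to 9.20 in control (median 8.87) and from 8.95 to 9.20 in shunt (median 9.09). All 8 shunt lambs lay above the control mean, 5 of 8 controls lay below every shunt lamb, and the highest lambs of both groups were level. The means were 8.87 ± 0.25 (SD) and 9.09 ± 0.10, a difference of 0.22 ± 0.09 (SE), or 1.16-fold. Without control replicate 2, the lowest lamb at 8.36, the RB1 difference was 0.14.

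By limma with Benjamini-Hochberg adjustment over all 24016 probe sets, 0 of the 10 probe sets of these genes passed 0.05, where 0.0708% of all probe sets did. In 0 of 10 were the groups fully apart, against 0.142% of all probe sets. Since this contrast was among the results known when the genes were grouped, nothing is read from these counts. In direction, 7 of 10 probe sets were higher in shunt and 3 lower, with a median difference of 0.05 and CDKN1C counted 3 times. By gene, 5 of 8 were higher and 3 lower, with a median difference of 0.04. Over all 9155 genes, 4109 were higher and the median was -0.01. With arrays centred on their median, the median over all genes was 0.0095, so this background depends on the processing. CCND3 and CDK2 changed sign under other settings.

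Around these genes, the partners that act at the G1 to S boundary lay in both directions. Of 36 genes sought, 23 were measured, 13 higher and 10 lower, with a median difference of 0.03, and 0 passed over all genes (limma), where 0.0874% of genes did; without adjustment 6 were higher and 1 lower at p under 0.05, beside 6.63% of genes higher and 7.92% lower. CCNE2, one of the E-type cyclins, differed by 0.55 ± 0.25 (SE) with 8 of 8 shunt lambs above the control mean. The SD of CCNE2 was 0.74 in control and 0.32 in shunt. The other E-type cyclin, CCNE1, differed by -0.01 ± 0.07. CDKN2C (p18), an inhibitor of CDK4 and CDK6, differed by 0.40 ± 0.17, again with 8 of 8 lambs above. The SD of CDKN2C was 0.48 in control and 0.26 in shunt. Lying above the control mean does not place a lamb above every control.

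MYC, a growth-driven transcription factor that is also counted among immediate early genes, differed by 0.46 ± 0.16 with 7 of 8 lambs above the control mean. E2F1, the transcription factor released from RB1, was at 0.04 ± 0.07. RBL2, a pocket protein related to RB1, was at -0.07 ± 0.08, and its other probe sets were at -0.10 and -0.11. MDM2, a target of p53 that serves as a companion reading to CDKN1A, was at 0.02 ± 0.06 on a dim probe set (percentile 7.0 of the means). CCND1 and RB1 thus lay in opposite directions, CCNE2, CDKN2C and MYC lay higher, and CCNE1, E2F1, RBL2 and MDM2 lay within 0.11 of 0.

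**Figure D2:**
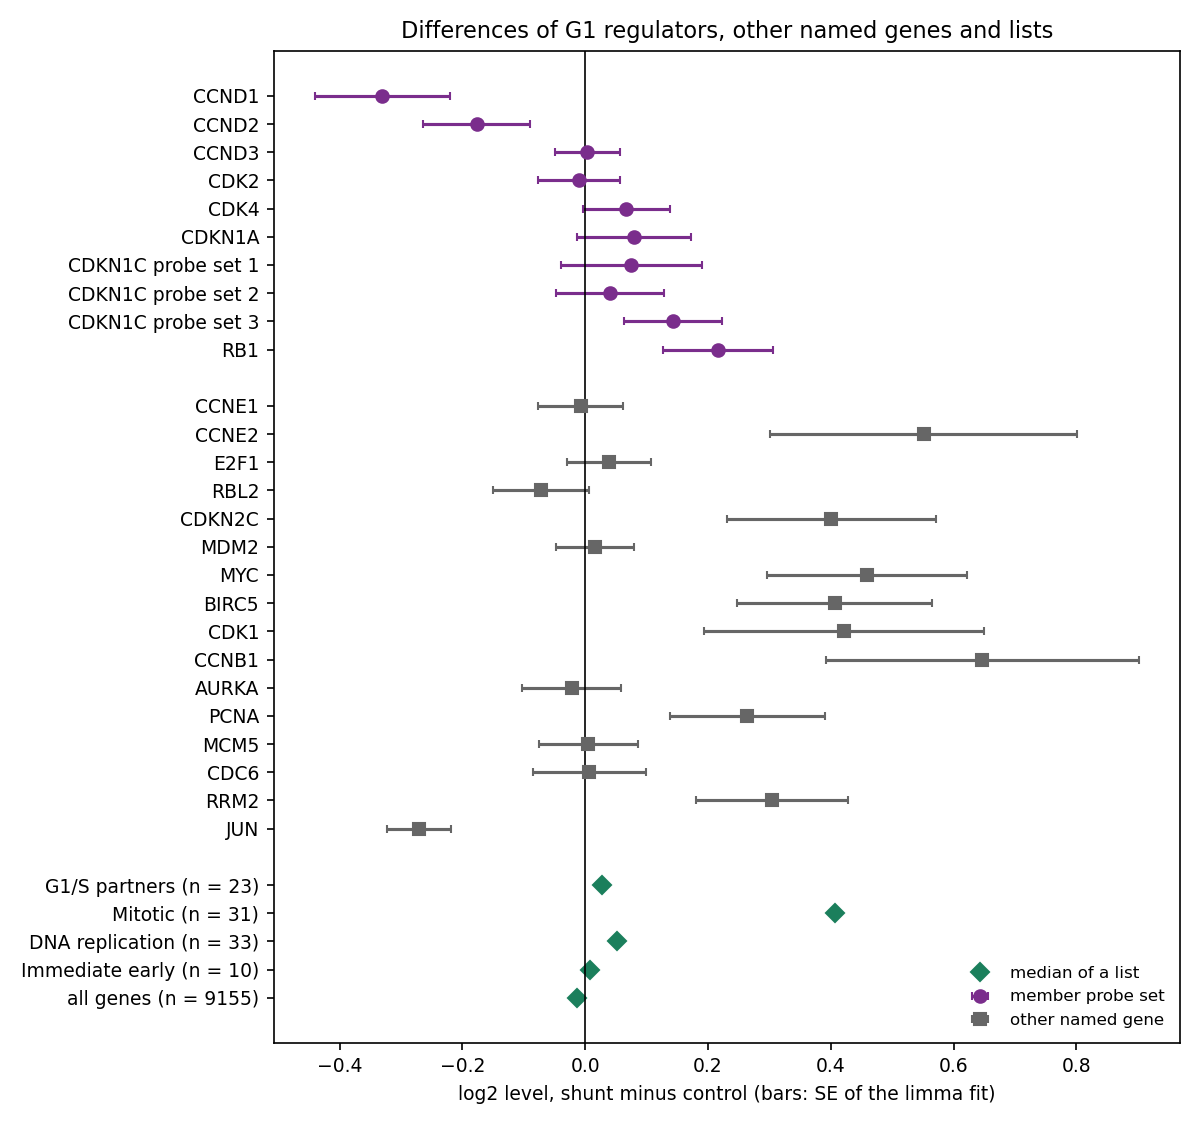
Shunt minus control on the log2 scale for the 10 probe sets of the G1 regulators (circles, ± SE of the limma fit), other named genes (squares, ± SE) and list medians (diamonds, no error). CCND1 at -0.33, JUN at -0.27 and CCND2 at -0.18 lie to the left of 0, while CCNB1 at 0.65, CCNE2 at 0.55 and the mitotic median at 0.41 lie to the right.

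The later phases of the cycle show what CCND1 lay against. Of 46 mitotic genes, 31 were measured and 28 were higher in shunt, with a median difference of 0.41; 0 passed over all genes (limma), and without adjustment 16 had p under 0.05, all of them higher, beside 6.63% of all genes; 4109 of 9155 genes were higher in all. This list is not independent of what was known when CCND1 was singled out, so nothing is read from these counts. The cyclin of mitosis CCNB1 differed by 0.65 ± 0.25 (SE), its kinase CDK1 by 0.42 ± 0.23, the survivin gene BIRC5 by 0.41 ± 0.16, and the spindle kinase AURKA by -0.02 ± 0.08. The mean level of the list ran from 7.44 to 8.56 in control lambs and from 8.04 to 8.69 in shunt lambs, so control lambs ranged more widely and the groups overlapped.

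Genes of DNA replication, which RB1 and the E2F factors control, had a median difference of 0.05, with 24 of 33 higher and 0 passing (limma; without adjustment 4 had p under 0.05, all higher, beside 6.63% of all genes). The replication clamp PCNA differed by 0.26 ± 0.13 and the ribonucleotide reductase subunit RRM2 by 0.30 ± 0.12, each with 8 of 8 shunt lambs above the control mean. The SD of PCNA was 0.33 in control and 0.22 in shunt, and that of RRM2 was 0.31 and 0.24. The RRM2 probe set lay at percentile 26.9 of the means. The helicase subunit MCM5 was at 0.01 ± 0.08 and the loading factor CDC6 at 0.01 ± 0.09. Among 10 immediate early genes, 5 were higher and 5 lower, with a median of 0.01 and 0 passing (limma; without adjustment 1 higher and 1 lower had p under 0.05, beside 6.63% and 7.92% of all genes). JUN, the AP-1 subunit that drives CCND1 transcription in growing cells, differed by -0.27 ± 0.05 on its brightest probe set, with 8 of 8 shunt lambs below the control mean. Its other 4 probe sets lay between -0.39 and -0.04. A relation of JUN to CCND1 in these lambs was not tested.

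The levels of markers of the cell types in this tissue also differed in direction between the lists, none past the threshold, and their part in the differences above was not tested. Alveolar type 2 markers were lower in 7 of 7 measured genes (median -0.19) and type 1 markers in 5 of 6 (median -0.17). Smooth muscle markers were higher in 6 of 8 (median 0.24) and endothelial markers in 8 of 11 (median 0.08). The mean level of the type 2 list ran from 10.61 to 10.94 in control and from 10.40 to 10.82 in shunt, that of the type 1 list from 10.94 to 11.41 and from 10.97 to 11.24, that of the smooth muscle list from 9.69 to 10.22 and from 9.94 to 10.25, and that of the endothelial list from 8.93 to 9.09 and from 9.02 to 9.24. Airway markers were lower in 5 of 5 (median -0.24) and neutrophil markers in 6 of 6 (median -0.18), while the medians of fibroblast (0.04), macrophage (-0.04), T cell (-0.03) and erythroid markers (0.08) lay closer to 0. The 4 lists with ranges overlapped between groups, and 0 of their genes passed over all genes (limma; without adjustment 8 higher and 6 lower of 32 had p under 0.05, beside 6.63% and 7.92% of all genes, of which 0.0874% passed).

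Whether CCND1 also ran against the mitotic genes from lamb to lamb is a separate question, since variation within a group was not used to choose the genes. It did not do so detectably. Within the 8 control lambs CCND1 and the mean of the mitotic list had r = -0.29 (exact two-sided permutation p = 0.502, adjusted p = 0.720; Spearman's rho = -0.38, exact permutation p = 0.360). Within the 8 shunt lambs they had r = 0.39 (exact permutation p = 0.356, adjusted p = 0.633; rho = 0.26, exact permutation p = 0.536). Without the 2 lambs farthest from the median of the list, r was -0.22 in control and -0.13 in shunt, so the positive value in shunt rests on those lambs. Control replicate 5, with the lowest mitotic mean, read 7.64 for CCND1, and control replicate 6, with the highest, read 7.48. Shunt replicate 6, the lowest of all for CCND1 at 6.88, had the second highest mitotic mean of its group.

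The 8 genes were set against the mitotic and the DNA replication lists in both groups, 32 relations in all. After adjustment 0 passed, and 2 had an unadjusted exact permutation p under 0.05 by r and 4 by rho. CDK4 followed the replication genes in the shunt lambs with r = 0.88 (exact permutation p = 0.00407, adjusted p = 0.130; rho = 0.81, exact permutation p = 0.0218, adjusted p = 0.298), and r was 0.82 without the 2 lambs farthest from the median. In those lambs CDK4 was highest in shunt replicates 2, 8 and 4, at 11.06, 10.99 and 10.98, which were also the 3 highest in the replication list. In the control lambs the CDK4 value was r = 0.54 (exact permutation p = 0.191, adjusted p = 0.572; rho = 0.33, exact permutation p = 0.428).

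CCND3 followed the replication genes in the control lambs with r = 0.73 (exact permutation p = 0.0397, adjusted p = 0.506; rho = 0.83, exact permutation p = 0.0154, adjusted p = 0.298). That r was 0.86 without the 2 lambs farthest from the median and 0.56 without control replicate 2. In the shunt lambs CCND3 had r = -0.23 with the replication genes (exact permutation p = 0.583; rho = -0.29, exact permutation p = 0.501). With the mitotic list CCND3 had r = 0.59 in control (exact permutation p = 0.108; rho = 0.74, exact permutation p = 0.0458, adjusted p = 0.367) and -0.58 in shunt (exact permutation p = 0.134; rho = -0.79, exact permutation p = 0.0279, adjusted p = 0.298). Without the 2 lambs farthest from the median these were 0.62 and -0.92. CDKN1A had negative values with the mitotic list in both groups, r = -0.45 in control (exact permutation p = 0.266; rho = -0.40, exact permutation p = 0.327) and -0.66 in shunt (exact permutation p = 0.0730; rho = -0.71, exact permutation p = 0.0576), and neither passed after adjustment (0.572 and 0.506). Without the 2 lambs farthest from the median these were -0.36 and -0.24. No difference of a correlation between the groups was tested.

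**Figure D3:**
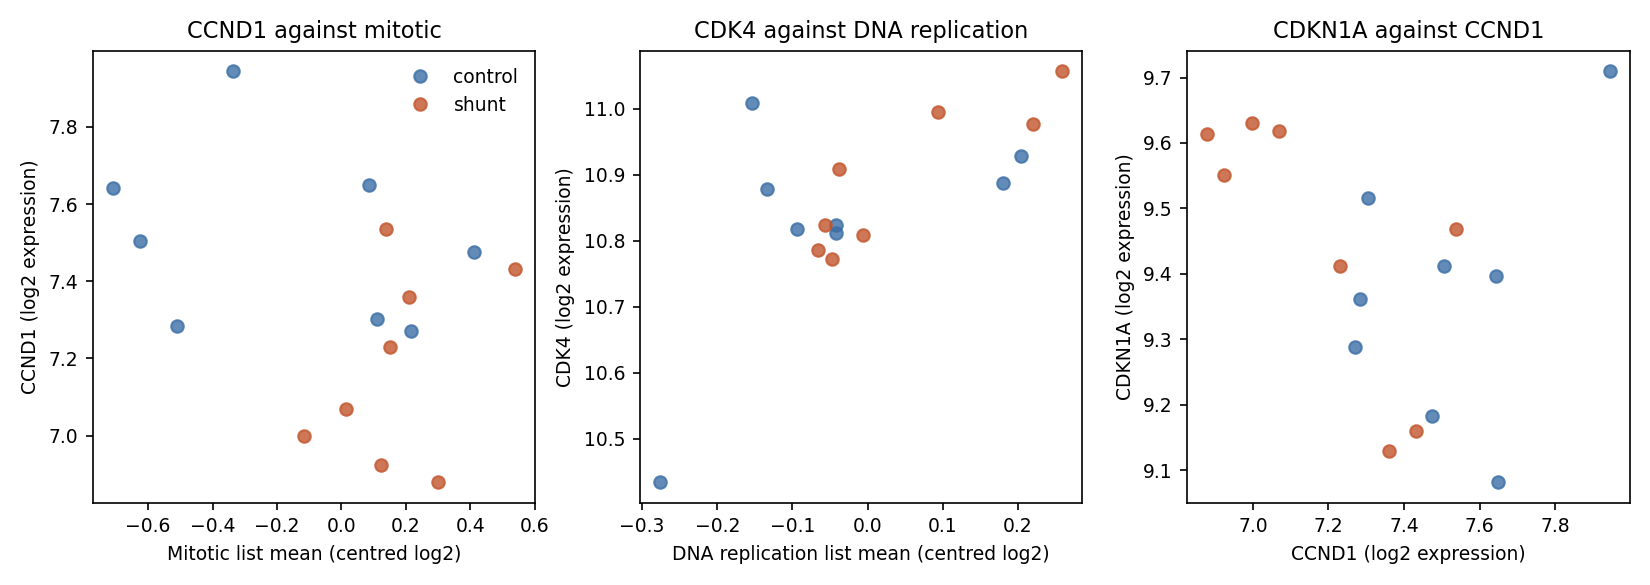
Each point is 1 lamb: CCND1 against the mitotic list mean, CDK4 against the DNA replication list mean, and CDKN1A against CCND1, with levels in log2 and list means in log2 after each gene's mean over the 16 arrays was taken off. CCND1 shows no common line with the mitotic mean in either group, CDK4 and the replication genes have r = 0.88 in shunt, and CDKN1A and CCND1 have r = -0.72 in shunt, neither past adjustment.

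Between each other, the 8 genes form 28 pairs, and in both groups 56 relations were computed. After adjustment 0 passed, and 2 had an unadjusted exact permutation p under 0.05, or 3.57%. That share is below the 0.05 that unrelated genes give on average, so the 2 are given as a description. CDKN1C ran against its target CDK2 in the control lambs, with r = -0.85 (exact permutation p = 0.00558, adjusted p = 0.312; rho = -0.86, exact permutation p = 0.0107), and with r = -0.75 without the 2 lambs farthest from the median of CDK2. In the shunt lambs this pair had r = -0.48 with no p under 0.05. CDKN1A ran against CCND1 in the shunt lambs, with r = -0.72 (exact permutation p = 0.0487, adjusted p = 0.806; rho = -0.64, exact permutation p = 0.0962), and -0.88 without the 2 lambs farthest from the median of CCND1. With arrays centred on their median r was -0.67 in the shunt lambs (exact permutation p = 0.0783). There the 4 lambs lowest in CCND1, replicates 6, 8, 1 and 7 at 6.88 to 7.07, were the 4 highest in CDKN1A at 9.55 to 9.63. In the control lambs that pair had r = 0.34, which turned to -0.53 without the 2 lambs farthest from the median of CCND1.

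CCND3 and its kinase partner CDK4 had r = 0.80 in the control lambs (exact permutation p = 0.0635, adjusted p = 0.806), but rho was 0.31 (exact permutation p = 0.462) and r became -0.55 without the 2 lambs farthest from the median of CCND3. Control replicate 2 was lowest in both genes, at 9.47 and 10.43. RB1 and CCND1 had r = 0.69 in control (exact permutation p = 0.0612; rho = 0.69, exact permutation p = 0.0694) and -0.21 in shunt.

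**Figure D4:**
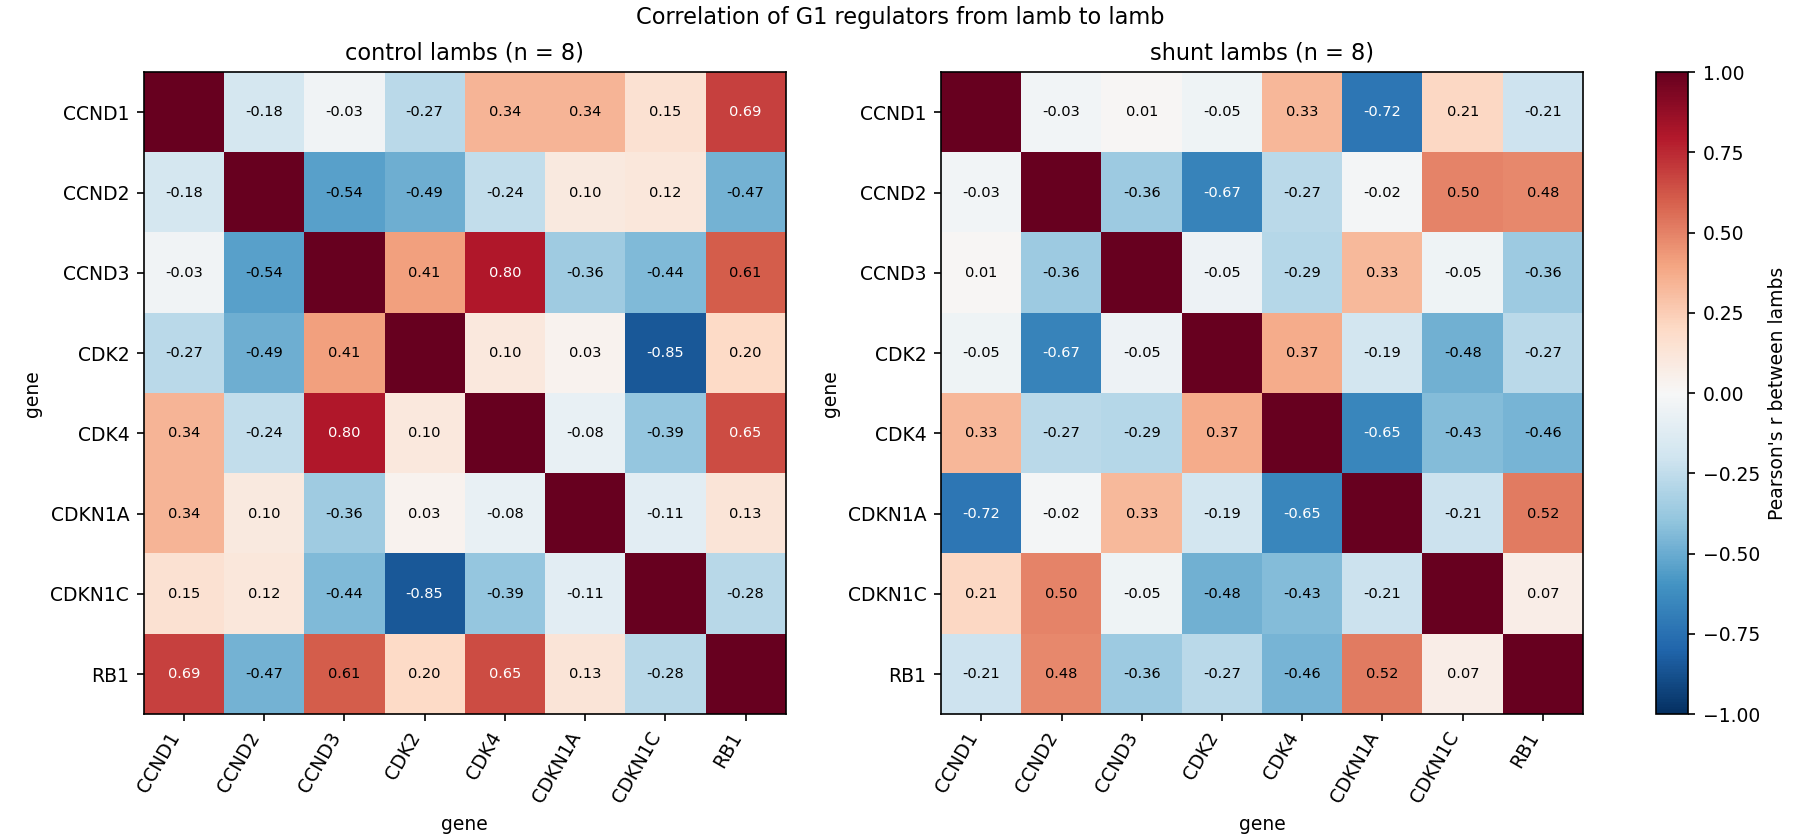
Pearson's r between the 8 genes from lamb to lamb, in the control lambs (left) and the shunt lambs (right), on a colour scale from -1 to 1. The strongest values off the diagonal are -0.85 for CDKN1C with CDK2 and 0.80 for CCND3 with CDK4 in control, and -0.72 for CDKN1A with CCND1 in shunt, none past adjustment over 56 relations.

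As a description, the genes most like each member were sought over the 16 arrays after each group's mean was taken off, among 9154 other genes. The likeness is Pearson's r, the genes were picked as the highest of a long list, and no p is given. CCND1 was most like TM9SF2 (r = 0.84), FNDC3B (r = 0.84) and RCN2 (r = 0.83). These 3 genes lay higher in shunt, by 0.07, 0.17 and 0.25, whereas CCND1 lay lower. CCND2 was most like CD99, ZNF329 and SPG7, each with r = 0.75. CCND3 was most like ARHGEF2 (0.89), TMOD4 (0.87) and SIRT7 (0.86).

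CDK4 was most like DHODH (r = 0.89), the enzyme of pyrimidine synthesis, the tubulin gene TUBA1A (0.89) and the histone chaperone gene DNAJC9 (0.87). CDK2 was most like RELT (0.84), ICAM3 (0.83) and NKIRAS1 (0.80). CDKN1A was most like ITPKC (0.83), LYVE1 (0.79), a receptor of lymphatic endothelium, and AFF1 (0.78). CDKN1C was most like OXR1 (0.83), EIF3E (0.83) and KAT6B (0.81), and RB1 was most like UBA6 (0.92), IFT57 (0.89) and ZC3H13 (0.87). Some of these values differed between the groups. CDK4 with DHODH had r = 0.98 in control and 0.63 in shunt, and RB1 with UBA6 had 0.97 and 0.57. CDKN1A with LYVE1 went the other way, with 0.60 in control and 0.94 in shunt. Control replicate 2 was the lowest array for CDK4 and RB1, and its part in these values was not tested. None of the fixed mitotic or replication genes was among these 24 nearest genes.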

How the data were processed

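Log2 values, 1 for each probe set on each array, were deposited by the authors. They come from RMA, per the submitters' processing notes (version not given in the sources used here). No scanner files were used here, so signal over background is unknown, and the number of arrays limits the precision. The 112 control probe sets were left out. Symbols came from the platform annotation, and a gene was represented by its probe set of highest mean. Shunt and control were compared in R 4.3.3 with limma 3.58.1 (lmFit, eBayes, no covariate, two-sided, Benjamini-Hochberg threshold 0.05), tested on simulated data. Correlations within groups used all 40320 pairings of 8 arrays in Python 3.11.15. The members and lists were chosen with earlier results of these data known. Named were every member, genes fixed by name from 4 lists, and the 3 genes most like each member; CDK4 with CCND3 and RB1 with CCND1 were chosen after their values were seen. The relations with 10 marker lists and between CDKN1C probe sets were added after seeing the data. The labels describe no lamb individually, so p-values may measure spread between arrays only. Alternatives were a replicate block, normalization, array weights, the variance prior, a filter on dim probe sets, probe set choice, the threshold, list medians, Spearman's rho and each array left out.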

Additional observations from a re-analysis of the deposited data

Results flagged for a closer look

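Among 28 sets of values (10 probe sets and 4 list means in both groups), 1 held a lamb whose distance to the next one took up an unusual share of its group's range. Chance gives about 1.4 such sets. CDK4 read 10.434 in control replicate 2, against 10.811 in the next lamb, which is 0.657 of the range and above Dixon's limit for 8 lambs.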

How the results depend on the processing

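The count of member probe sets past the threshold was 0 in each of 24 alternatives, and with the replicate block it was also 0 of 10. Over all probe sets 17 passed, against 0 with the replicate block, 10 after quantile normalization again, 26 with arrays centred on their median, 45 with array weights and 55 at a threshold of 0.10. With 1 array left out the count over all probe sets ran from 6 (without control replicate 5 or shunt replicate 3, 5 or 8) to 75 (without shunt replicate 1). It was 7 without control replicate 1 or shunt replicate 2, 9 without control replicate 3, 10 without control replicate 7, 11 without shunt replicate 6 and 33 without control replicate 6 or 8. The replicate numbers are not known to pair lambs: deviations of same-numbered arrays correlated from -0.26 to 0.22, over 0.1 in 2 of 8 pairs, and 0 of 16 arrays correlated best with their own number.

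Each of 220 member differences under other settings moved by less than the SD between lambs. CCND1 stayed between -0.38 and -0.27, CCND2 between -0.22 and -0.12 and RB1 between 0.14 and 0.26, while CCND3, CDK2 and the second CDKN1C probe set changed sign, as did the medians of the G1 to S partners and of the immediate early genes. Of 96 genes in the 4 pathway lists, 0 passed, and with array weights 1 did, JUN (-0.28 ± 0.05, SE). With 1 array left out that count ran from 0 to 2: JUN passed without shunt replicate 1 or 7, and MNAT1 (-0.21) without shunt replicate 1. The mitotic median stayed between 0.32 and 0.48. No relation among members or with the 2 lists passed adjustment in any alternative. With 1 array left out, r of CDK4 with the replication genes in shunt ran from 0.81 to 0.93, of CDKN1C with CDK2 in control from -0.88 to -0.73, of CDKN1A with CCND1 in shunt from -0.92 to -0.65, and of CCND1 with the mitotic genes from -0.47 to -0.16 in control and from 0.12 to 0.62 in shunt.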

Other observations

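The 8 genes were also set against 10 lists of cell type markers in both groups, a step added after the data were seen. Of these 160 relations 0 passed after adjustment (smallest adjusted p = 0.300) and 15, or 9.38%, had an unadjusted exact permutation p under 0.05. All 15 are given below. CCND1 followed the smooth muscle markers in the shunt lambs, with r = 0.81 (exact permutation p = 0.0225, adjusted p = 0.300; rho = 0.69, exact permutation p = 0.0694), and r was 0.90 without the 2 lambs farthest from the median. In the same lambs CDKN1A ran against those markers, with r = -0.87 (exact permutation p = 0.00494, adjusted p = 0.300; rho = -0.86, exact permutation p = 0.0107), and -0.81 without those lambs. In the control lambs CCND1 had r = 0.34 with the smooth muscle markers and r = 0.79 with the T cell markers (exact permutation p = 0.0224, adjusted p = 0.300). The T cell rho was 0.74 (exact permutation p = 0.0458), and r was 0.61 without the 2 lambs farthest from the median. In shunt the T cell r was -0.28, and the difference between groups was not tested.

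CDK2 ran against the alveolar type 1 markers in control, with r = -0.91 (exact permutation p = 0.00402, adjusted p = 0.300), but rho was -0.62 (exact permutation p = 0.115) and r was -0.51 without the 2 lambs farthest from the median. CDKN1C ran with the same markers in control, with r = 0.78 (exact permutation p = 0.0135, adjusted p = 0.300; rho = 0.67, exact permutation p = 0.0831), and r was 0.50 without the 2 lambs farthest from the median. CCND2 followed the type 1 markers in the shunt lambs, with r = 0.81 (exact permutation p = 0.0143, adjusted p = 0.300; rho = 0.90, exact permutation p = 0.00456), and r was 0.69 without the 2 lambs farthest from the median. RB1 went with the macrophage markers in control (r = 0.86, exact permutation p = 0.0213; rho = 0.71, exact permutation p = 0.0576) and against them in shunt (r = -0.80, exact permutation p = 0.0203; rho = -0.71, exact permutation p = 0.0576), both with adjusted p = 0.300. The difference between groups was not tested, and r was 0.33 and -0.60 without the 2 lambs farthest from the median. CCND3 had r = -0.77 with fibroblast markers in control and -0.73 in shunt. In control, CCND3 had r = 0.89 with macrophage markers and CDK4 had 0.77 with smooth muscle markers. There CDKN1A had 0.85 with type 2 and -0.78 with airway markers. CDK2 had r = -0.82 with erythroid markers in shunt. In that order these were -0.67, -0.23, 0.23, 0.36, 0.56, -0.23 and -0.66 without the 2 farthest lambs. Each had an unadjusted exact permutation p under 0.05, and none passed adjustment.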
